A study of Sus scrofa with 40 samples.

Results

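Probes for genes of DNA replication, chromatin packing and mitosis were examined in the adult *Longissimus* muscle (LM) of Basque (B) and Large White (LW) pigs. They were 5 probes chosen by name from 15198 gene probes of the array: CF365955.1_825 (GINS2), BX921701.1_4 and CB285644.1_923 (both HIST1H1B), BQ600358.1_823 (NEK3) and CF788883.1_1066 (DCTN3). The 40 pigs were castrated males, taken at about 145 kg live weight, with 10 B and 10 LW pigs in conventional housing on a slatted floor and 10 B and 10 LW pigs in alternative housing with bedding and an outdoor area. Breed cannot be told apart from age, as B pigs took longer to reach this weight. Nor can it be told apart from feeding, as rations were set by weight and LW pigs have the larger appetite. Each array compared the Cy3-labelled RNA of 1 pig with a Cy5-labelled pool of the RNA of all 40 pigs, always in that dye order. The scanner output names no gene. Symbols came from a list of probes that the study chose as lower in B pigs on these same samples, so the direction of a breed difference in any gene named here is not independent evidence.

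Mature muscle fibres have left the cell cycle, and dividing cells in adult muscle are mainly satellite cells and the cells of vessels, connective tissue and blood. GINS2 is a subunit of the GINS complex, which works with the MCM helicase at the replication fork. HIST1H1B encodes a linker histone of the replication-dependent class, whose mRNAs mostly end in a stem-loop in place of a poly(A) tail. NEK3 is a kinase of the NIMA-related family, and DCTN3 is a small subunit of dynactin, the partner of the motor dynein, which acts at the spindle in dividing cells and carries cargo along microtubules in all cells.

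All 5 probes were dim. Median Cy3 signal over local background, across the 40 arrays, was 38.7 for NEK3, 62.4 for DCTN3, 73.0 for GINS2, 86.9 for HIST1H1B probe CB285644.1_923 and 123 for HIST1H1B probe BX921701.1_4, compared with a median of 170 over the 12222 tested probes. Every member thus lay under the median of the tested probes in brightness, and NEK3 was brighter than only 9.70% of them. Brightness differs between probes for reasons other than RNA level, so it is not a comparison of expression between genes. As a check of the tissue, the probes of the muscle fibre genes ACTA1 and MYH1 were well above background on all arrays of both breeds.

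Fewer B than LW pigs had a detected spot for 4 of the 5 probes. A spot counts as detected when the scanner software marks it well above background in Cy3. NEK3 was detected in 5 of 10 B pigs in conventional and 5 of 10 in alternative housing, and in 10 of 10 LW pigs in each. DCTN3 was detected in 8 B pigs in conventional and 5 in alternative housing, GINS2 in 10 and 8, and HIST1H1B probe CB285644.1_923 in 9 and 9. These 3 probes were detected in every LW pig, and HIST1H1B probe BX921701.1_4 was detected in all 40 pigs. In the Cy5 channel, which holds the same pool on every array, NEK3 was detected on 15 of 20 arrays of B pigs and 18 of 20 arrays of LW pigs, and DCTN3 on 20 and 19. The pool channel of the other 3 probes was detected on all arrays. No test was run on these counts. Of the tested probes, 78.5% were detected in Cy3 on all arrays. The members were listed as lower in B, and detection rests on the Cy3 signal. Fewer detected spots in B pigs thus follow in part from that choice.

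**Figure D1:**
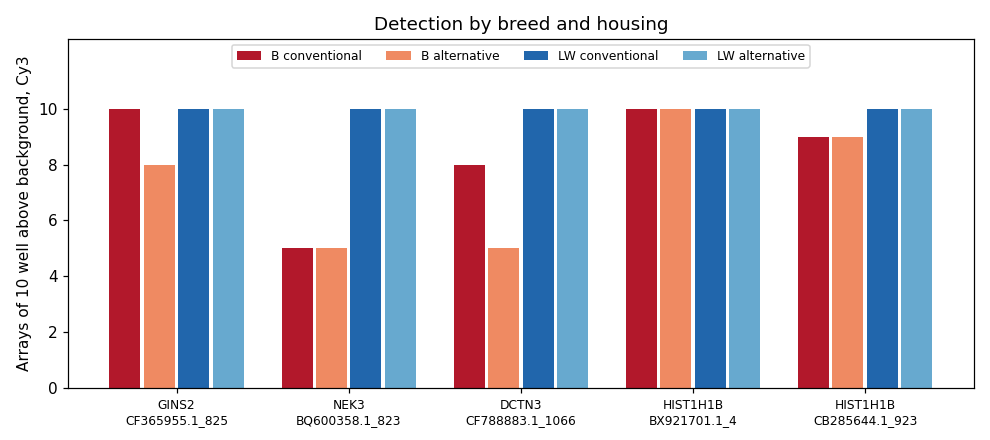
Number of arrays, of 10 in each group, on which each probe was well above background in Cy3 (vertical axis), for B and LW pigs in conventional and alternative housing (bar colours). All LW bars stand at 10, and the lowest bars are the 5 arrays of NEK3 in both B groups and of DCTN3 in B pigs in alternative housing.

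The ratio of pig to pool is given as log2(Cy3/Cy5) with the median of each array set to 0, and differences are B minus LW. Of the 5 probes, 4 were called lower in B pigs by limma at an adjusted P value under 0.05, while 9.61% of the tested probes were called lower in B and 21.2% were called in either direction. Since the study listed the probes for this difference, nothing is read from that count. Within conventional housing alone the same 4 probes were called lower, beside 2.93% of the tested probes called lower and 8.29% called in either direction. Within alternative housing they were the same 4 again, beside 4.72% lower and 7.67% in either direction. In muscle tissue, fewer cells of a type and less RNA per cell cannot be told apart.

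GINS2, the replication fork subunit, had log2 ratios from -0.39 to 0.46 (median -0.14) in B pigs in conventional housing and from -0.45 to 0.03 (median -0.24) in B pigs in alternative housing. In LW pigs the ratios ran from -0.17 to 0.71 (median 0.44) in conventional and from -0.17 to 0.68 (median 0.33) in alternative housing. The breeds overlapped, since 10 of 20 B pigs lay below every LW pig and 8 of 20 LW pigs lay above every B pig, with 1 B pig in conventional housing far up among the LW values. The mean was -0.14 ± 0.23 over B pigs and 0.35 ± 0.27 over LW pigs (SD, n = 20 each). The breed difference was -0.46 (SE 0.11) in conventional and -0.56 (SE 0.11) in alternative housing. The interaction of breed and housing was -0.09 (SE 0.16, adjusted P = 0.970 in limma). Within the 7 slides the difference ranged from -0.71 to -0.25, beside -0.51 (SE 0.08) over all slides. It was -0.53 without background correction, -0.81 with an offset of 10 and -1.20 with Agilent's processed signals, which change dye normalization as well as background.

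For NEK3, the B pigs were close together. Ratios ran from -0.01 to 0.20 (median 0.14) in B pigs in conventional housing and from -0.03 to 0.27 (median 0.17) in alternative housing. In LW pigs they ran from 0.09 to 0.71 (median 0.48) in conventional and from 0.03 to 0.77 (median 0.43) in alternative housing. All 20 B pigs lay below the LW median, 14 of 20 LW pigs lay above every B pig, and 3 B pigs lay below every LW pig. The lowest LW pig was LW alternative replicate 18, on 1 of the 2 arrays that follow the series matrix least, and its ratio was 1.16 with processed signals. Without these 2 arrays the LW pigs in alternative housing began at 0.20, and still 3 B pigs lay below every LW pig. The SD was 0.078 in B and 0.22 in LW pigs (n = 20 each). Among B pigs the mean was 0.13 in the 10 pigs with a detected spot and 0.14 in the 10 without. With Agilent's processed signals these means were -0.26 (SD 0.16) and -0.60 (SD 0.24). On that scale B pigs ran from -0.90 to -0.01 and LW pigs from -0.51 to 1.37. A small spread in B pigs stands beside a signal near background, where the offset of 50 added in background correction narrows ratios, and the part of this in the spread was not tested. The differences of -0.30 (SE 0.07) in conventional and -0.31 (SE 0.07) in alternative housing had an interaction of -0.00961 (SE 0.10, adjusted P = 0.997 in limma). Within slides the difference ranged from -0.46 to -0.16, beside -0.30 (SE 0.05) over all slides. It was -0.36 without background correction, -0.56 with an offset of 10 and -1.15 with processed signals.

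DCTN3, the dynactin subunit, varied most among B pigs in alternative housing. Ratios there ran from -0.50 to 0.42 (median -0.19, SD 0.35), and in B pigs in conventional housing from -0.43 to 0.29 (median -0.02, SD 0.23). LW pigs lay between 0.14 and 0.61 (median 0.45) in conventional and between 0.12 and 0.57 (median 0.36) in alternative housing. Without the same 2 arrays, of which 1 is B alternative replicate 15, the median of B pigs in alternative housing was -0.40. No pig of that group lay between -0.40 and 0.02, and leaving out any pig above this gap gives the same median. No LW pig was as low as the median B pig, 13 of 20 B pigs lay below every LW pig, and the highest B pigs reached into the LW range. The mark of detection is set on the Cy3 signal, which is also the numerator of the ratio, so that lower ratios in undetected spots follow from it in part. The 13 B pigs with a detected spot had a mean of 0.08, and the 7 without had a mean of -0.33. When spots that were not detected were left out of the model, which removes low B values, the breed difference was -0.28 (adjusted P = 0.00451 in limma), compared with -0.44 (SE 0.08) with all spots. Within slides it ranged from -0.84, on the slide with 1 pig of each breed, to -0.15. The difference over all slides was -0.48 without background correction and -1.50 with processed signals.

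**Figure D2:**
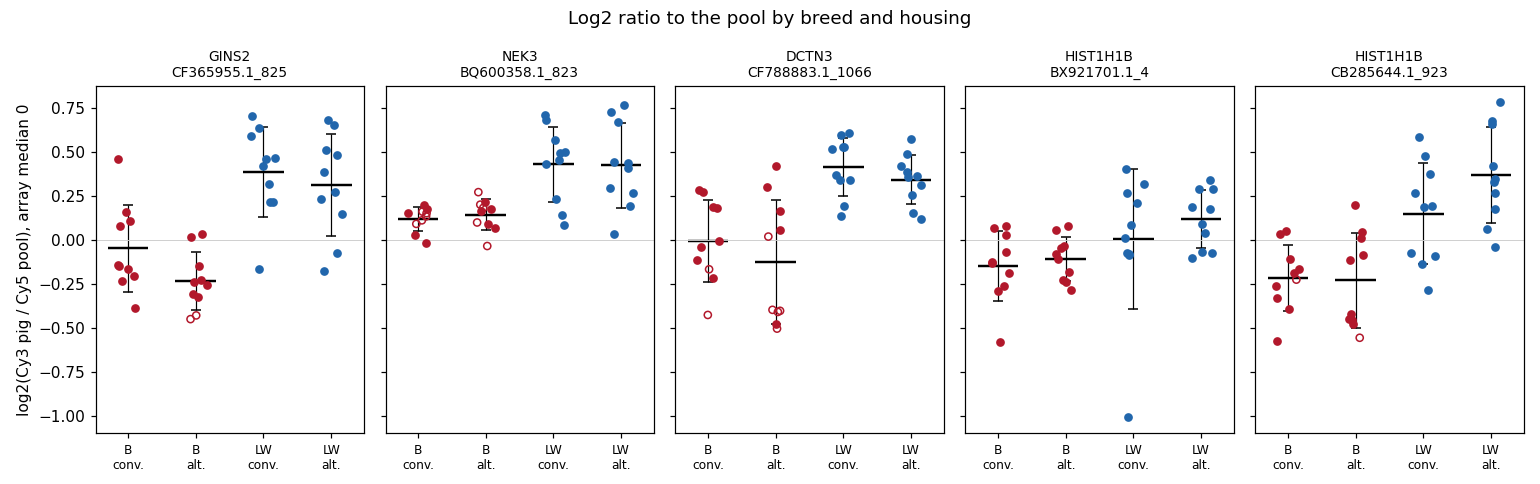
Log2 ratio of each pig to the pool (vertical axis, median of each array set to 0) for the 5 probes, by breed and housing. Each point is 1 pig, filled where the spot was well above background in Cy3 and open where it was not, and the bars give mean and SD (n = 10). The open points of DCTN3 lie mostly at the bottom of the B groups, those of NEK3 lie among the filled points on this scale, and 1 LW pig in conventional housing lies at -1.01 for HIST1H1B probe BX921701.1_4.

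HIST1H1B was measured by a pair of probes. Probe CB285644.1_923 had ratios from -0.57 to 0.05 (median -0.20) in B pigs in conventional and from -0.56 to 0.20 (median -0.27) in alternative housing. In LW pigs it ran from -0.28 to 0.59 (median 0.19) in conventional and from -0.04 to 0.79 (median 0.34) in alternative housing. All 20 B pigs lay below the LW median, and 8 of them below every LW pig, so that the breeds overlapped. Without B alternative replicate 15 the median of B pigs in alternative housing was -0.42. No pig of that group lay between -0.42 and -0.11, and leaving out any pig above this gap gives the same median. The breed difference of this probe was -0.40 (SE 0.11) in conventional and -0.60 (SE 0.11) in alternative housing, and the interaction was -0.19 (SE 0.16, adjusted P = 0.968 in limma). Within slides its difference ranged from -0.74 to -0.07, the latter on the slide with 1 pig of each breed. The next smallest was -0.24. The difference over all slides was -0.50 (SE 0.08), and it was -0.52 without background correction and -0.998 with processed signals.

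Probe BX921701.1_4, the brighter HIST1H1B probe, lay between -0.58 and 0.08 (median -0.13) in B pigs in conventional and between -0.28 and 0.08 (median -0.09) in alternative housing. LW pigs ran from -1.01 to 0.40 (median 0.05) in conventional and from -0.10 to 0.34 (median 0.14) in alternative housing. All 20 B pigs lay below the LW median, but no B pig lay below the lowest LW pig, LW conventional replicate 8. The breed difference of -0.18 (SE 0.08) was not called (adjusted P = 0.121 in limma). Without that pig it was -0.25 and was called (adjusted P = 0.00252). Within slides it ranged from -0.29 to 0.00468. The latter end rests on LW conventional replicate 8. On its slide the other LW pigs lay at 0.40 and 0.18, and the mean of B pigs was -0.14.

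The difference between the HIST1H1B probes was then tested within arrays. BX921701.1_4 minus CB285644.1_923 differed between breeds by 0.33 (SE 0.12, adjusted P = 0.0359 in limma over 97 pairs of probes with a shared symbol), and 42 of these pairs were called. Without LW conventional replicate 8 the value kept its sign at 0.23 and was no longer called (adjusted P = 0.0633). It was called under 18 of 20 alternatives, with adjusted P from 0.00852 to 0.0633. That tally includes the alternatives that only centred arrays on other sets of spots. Centring cancels in a difference within an array, so these could only repeat 0.33 (adjusted P = 0.0359 in limma). They say nothing about how stable the call is. Leaving out the filter on dim probes also repeated both values. LW conventional replicate 8 was chosen for leaving out after its value had been seen. In the residuals of the model, the HIST1H1B probes did not rise and fall together across pigs (r = -0.18, n = 40, and -0.04 without LW conventional replicate 8).

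The sequences of the probes are shown because symbols rest on the study's list alone and a reader may match them again. They are given 5′ to 3′, and capitals mark the longest stretches that the HIST1H1B probes share on the same strand, which are 2 stretches of 6 bases.
GINS2 CF365955.1_825: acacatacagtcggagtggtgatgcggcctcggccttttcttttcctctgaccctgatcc
NEK3 BQ600358.1_823: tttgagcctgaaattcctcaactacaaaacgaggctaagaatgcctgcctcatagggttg
DCTN3 CF788883.1_1066: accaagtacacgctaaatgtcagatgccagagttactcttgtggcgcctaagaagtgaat
HIST1H1B BX921701.1_4: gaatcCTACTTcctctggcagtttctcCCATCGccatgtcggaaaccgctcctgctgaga
HIST1H1B CB285644.1_923: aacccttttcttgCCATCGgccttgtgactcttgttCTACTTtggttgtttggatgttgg
No other probe of the array shared a stretch of 20 bases with any of the 5 on either strand, and none came from the same source sequence. The G and C content was 55% in GINS2 and HIST1H1B probe BX921701.1_4 and 45% in the other 3, and the median over all gene probes was 45%.

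The pool channel gives the spread of repeated measurements of 1 RNA. For GINS2 the SD of median-centred log2 Cy5 over the 40 arrays was 0.14, and that of Cy3 was 0.29 among B and 0.25 among LW pigs. For DCTN3 these were 0.19, 0.34 and 0.21. They were 0.19, 0.20 and 0.36 for HIST1H1B probe BX921701.1_4, and 0.20, 0.32 and 0.33 for CB285644.1_923. For NEK3 they were 0.23, 0.21 and 0.20, but this rests on the arrays of B alternative replicate 15 and LW alternative replicate 18, which follow the series matrix least. Without these 2 arrays the SD of NEK3 was 0.11 in the pool, 0.09 in B and 0.19 in LW pigs. The channels differ in dye, and many NEK3 spots of B pigs lie near background, so no order is read from these spreads. The same step gave 0.11, 0.26 and 0.26 for GINS2 and 0.13, 0.31 and 0.21 for DCTN3. The Cy5 signal differed between arrays of B and LW pigs by -0.05 for GINS2, 0.00257 for NEK3, 0.00460 for DCTN3, 0.02 for BX921701.1_4 and -0.09 for CB285644.1_923, while the Cy3 signal differed by -0.55, -0.30, -0.44, -0.17 and -0.58. For each probe the Cy3 difference was the larger in size, and the Cy5 difference was not tested. The pool is the same on every array and the probes were listed for a breed difference in the ratio. That order was therefore set by the choice of probes and is not a check.

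Housing system, which did not choose the probes, was compared next. Differences of alternative minus conventional housing were -0.15 (SE 0.08) for GINS2, 0.02 (SE 0.05) for NEK3, -0.08 (SE 0.08) for DCTN3, 0.10 (SE 0.08) for BX921701.1_4 and 0.07 (SE 0.08) for CB285644.1_923. None was called. Sizes moved with the processing. With processed signals they were -0.38 for GINS2, 0.18 for NEK3, -0.31 for DCTN3, 0.23 for BX921701.1_4 and 0.17 for CB285644.1_923. Without LW conventional replicate 8 the difference for BX921701.1_4 was 0.04. Over all 12222 probes limma called 0 for housing and 0 for the interaction, with 338 and 323 probes at an unadjusted P value under 0.05, and the two-step analysis of variance also called 0 for each. A missed threshold does not show that the groups were alike.

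Correlations between the members were low to moderate. NEK3 was not detected in 10 and DCTN3 not in 7 of 20 B pigs, and noise near background can hold a correlation down. Low values therefore do not show that the members vary apart. In residuals of the model over 40 pigs, the highest correlation between members was 0.47, for GINS2 with NEK3, followed by 0.38 for DCTN3 with CB285644.1_923. On the log2 ratios themselves, with slide and housing not removed, GINS2 with NEK3 had r = 0.56 within LW pigs and -0.00134 within B pigs (n = 20 each). Probes most like each member were sought among all tested probes. For GINS2 these included C16ORF74 (r = 0.78) and TCEAL4 (r = 0.73). For BX921701.1_4 they were C19ORF30 (r = 0.93), TNK1 (r = 0.91) and CCL22 (r = 0.91), which came to 0.85, 0.81 and 0.81 without LW conventional replicate 8. The closest probe had no symbol for NEK3 (BP162523.1_1047, r = 0.65), DCTN3 (BM190606.1_3147, r = 0.69) and CB285644.1_923 (r = 0.62). These correlations are descriptions over arrays that share slides and a pool.

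Other genes of the same processes were named through the study's list of probes lower in B, of whose 683 probes 509 were called lower and 0 higher, with a median difference of -0.26. The study also lists genes higher in B, which were not used for names here. Every list below is therefore one-sided by construction, and genes of these processes that were higher in B could not appear. Of the replication fork list, 5 of 55 symbols were present and 3 of 5 probes were called, with GINS2 first, then RFC3, a subunit of the clamp loader (-0.30, SE 0.09), and MCM2, a subunit of the helicase (-0.15, SE 0.05). Of histones, 3 of 45 symbols were present and 3 of 4 probes were called, led by HIST1H2BM (-0.55, SE 0.18), then HIST1H1B and HIST2H2BE (-0.37, SE 0.11). Their median was -0.43, and that of the replication fork list -0.15.

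Of 11 NEK kinases, NEK3 and NEK7 (-0.21, SE 0.06) were present and both called. Of dynactin and dynein, 3 of 26 symbols were present and 4 of 4 probes were called, namely DCTN3, the light intermediate chain DYNC1LI2 (-0.58, SE 0.08, and -0.45, SE 0.07, by a second probe) and the light chain DYNLT3 (-0.30, SE 0.07). Of mitosis and cycling cells, 7 of 55 symbols were present and 8 of 8 probes were called, with HAUS1, an augmin subunit of the spindle (-0.37, SE 0.06), HMGB2 (-0.30 by both probes) and GTSE1 (-0.20, SE 0.06) leading. Of 14 cell cycle arrest symbols, BTG1 (-0.38, SE 0.14, adjusted P = 0.0567 in limma) was not called and the CDK inhibitor CDKN2C (-0.25, SE 0.05) was called. Proliferation markers such as MKI67 had no symbol here and were not analysed.

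Markers of cell types were as sparse. The fibre gene MYH1 was called (-0.66, SE 0.15) and ACTA1 was not (-0.29, SE 0.16). Of fibroblast genes, 1 of 3 probes was called, COL1A2 at -0.50 (SE 0.17), with its second probe at -0.18 (SE 0.07) and DCN at -0.17 (SE 0.10). The red blood cell gene HBA2 had -0.44 (SE 0.23) and -0.39 (SE 0.24), neither called. Satellite cell, endothelium, adipocyte and leukocyte markers had no symbol here. As names came only from probes listed as lower in B, a marker higher in B could not appear. One such marker is the adipocyte gene LIPE, which the paper reports as higher in B pigs. The part of cell makeup in the breed differences was not tested.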

How the data were processed

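The authors scanned the arrays and deposited spot intensities from Agilent Feature Extraction before normalization, with local background and marks for outliers and detection. A series matrix that the authors deposited holds log2 ratios per array. When compared with the log2 ratio of Agilent's processed signals, all 40 arrays followed their own column best (median r = 0.994). B alternative replicate 15 and LW alternative replicate 18 were lower (0.680 and 0.833), for a reason not given in the sources used here. Column medians lay between -0.0148 and 0.0261 and the values run as pig over pool. NEK3 has no value there. Submitters' processing notes name limma.

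The normexp method (offset 50) of limma 3.58.1, run in R 4.3.3, corrected the background. Each array's log2(Cy3/Cy5) was centred on the median of its gene probes, after which 2396 outlier spots were left out. After background correction, median-centred log2 Cy3 of the members on B alternative replicate 15 lay between -0.03 and 0.02. For NEK3 the mean over all B pigs was -0.86. Ratios of that array are thus narrow in the main fit, and the cause was not tested. Without it and LW alternative replicate 18, 3534 probes were called between breeds, beside 2593 with all arrays. Probes entered the test if, in either breed, 10 arrays or more had the Cy3 spot well above background. Breed, housing, their interaction and slide were fitted together, with Benjamini-Hochberg adjustment over 12222 probes. Correlations between arrays ranged from -0.34 to 0.83, and the direction was kept because the methods state the dyes. Detected probes per array numbered 10447 to 13441, and the number of arrays limits the precision. Litter was not in the model, and P values treat 2 pigs of a litter as independent. Programs were tested on simulated data.

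The members and lists were chosen with earlier results of these data known. The members are all named. From each list the 3 genes with the largest absolute breed difference are named, and for each member the 3 probes with the highest correlation of residuals, with at most 2 unnamed probes given by name. Alternatives covered background, normalization, filters, slide, weights and replicate blocks. A further 6 settings of the model were chosen after seeing the data, as were the ranges, spreads, correlations and detection means given without certain arrays or with processed signals. The median of an array was tried over 5 sets of spots, and the set used here is the one that gave the counts of the earlier results. The 4 other sets are among those 6 settings.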

Additional observations from a re-analysis of the deposited data

Results flagged for a closer look

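Within the 20 groups of 10 pigs formed by 5 probes, 2 breeds and 2 housing systems, 1 held a pig far from the others, where chance alone gives about 1 in 20 such groups. For HIST1H1B probe BX921701.1_4, LW conventional replicate 8 lay at -1.01 on the scale of log2 pig over pool, and its gap to the next pig was 0.652 of the range of its group. On that array the spot was well above background and carried no outlier mark.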

How the results depend on the processing

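GINS2, NEK3, DCTN3 and HIST1H1B probe CB285644.1_923 stayed called lower in B pigs under each alternative that could be run for them, 21, 20, 21 and 21 in number. NEK3 has no series matrix value, and only BX921701.1_4 was detected on all arrays, so the others and the HIST1H1B pair have no value under that filter. The size depends on the processing. With Agilent's processed signals the differences were -1.20 for GINS2, -1.15 for NEK3, -1.50 for DCTN3 and -0.998 for CB285644.1_923. BX921701.1_4 was called with array weights (-0.21) and without LW conventional replicate 8 (-0.25). The HIST1H1B disagreement was 0.76 with processed signals, 0.69 with the series matrix and 0.51 with an offset of 10, beside 0.33 in the main fit. Its call was lost in the two-step analysis (0.30, adjusted P = 0.0569) or without LW conventional replicate 8 (0.23). The cause was not tested.

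Probes called between breeds ranged from 1757 (most variable probes) to 3783 (processed signals). Within conventional housing the count of 1013 became 1566 with processed signals, 1730 without background correction, 1624 with loess, 1532 with the series matrix, 1934 with array weights and 1665 without the 2 arrays that follow the series matrix least. Within alternative housing 938 became 1893, 1610, 1719, 1640, 1978 and 1587 in the same order, and 1480 with Cy3 intensity alone. Of these, called lower in B in conventional housing were 358 at first, 639 with processed signals, 757 with loess, 673 with the series matrix and 627 with array weights, and in alternative housing 577, 1034, 868, 834 and 877. Counts for housing and interaction were 0 throughout.

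Signs changed only in differences that were not called. For NEK3, housing was -0.0142 without undetected spots, and the interaction was 0.0268 with Cy3 alone, 0.0292 without slide and in the two-step analysis, 0.0165 with slide as random and 0.0129 or 0.0174 when centred on tested probes with or without outlier spots. For DCTN3 without undetected spots, housing was 0.0138 and the interaction 0.0335. For BX921701.1_4 without LW conventional replicate 8 the interaction was 0.0286.

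Replicate numbers repeat only across breeds, so a same-numbered pair is a B and an LW pig and cannot show litter, which joined pigs of a breed across housing systems. Such pairs had residual correlations from -0.15 to 0.21 over 20 pairs, of which 5 were over 0.1, and with the replicate block 2648 probes were called between breeds. Centring on other sets of spots gave 2583, 2575, 2667 and 2661. Dim signal over background limits NEK3 and DCTN3 most.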
